A study of Mus musculus with 10 samples.

Results

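Of the 40 genes of glycolysis and the hypoxia response examined here, Slc16a3, the exporter of lactate from glycolytic cells, was the 1 gene called different (adjusted p under 0.05) in mouse tracheal epithelial organoids whose basal cells came from Mettl3 knockout mice. It was 2.16-fold higher than in control organoids. The share of tested members called was 2.56%, no higher than the 2.91% of all tested genes. The call was lost when any 1 library other than M3-CKO replicate 3 was left out. The 40 genes were chosen by symbol: enzymes of glycolysis, transporters of glucose and lactate, regulators of the hypoxia-inducible factors (HIF) and genes that HIF switches on. All 40 have a row among the 22457 genes of the deposited count table, and 39 passed the filter on low counts that left 13528 genes for testing. The gene that did not pass was Slc2a3, with counts of 0 in all libraries but M3-CKO replicate 3.

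Organoids are small multicellular structures grown in a gel (Matrigel), here by their labels from the basal cells of the trachea, the stem cells of the airway lining. The 3 Ctrl libraries came from basal cells of control mice and the 3 M3-CKO libraries from basal cells of mice that the series title describes as Mettl3 knockout, all harvested for RNA on day 14 of culture. Mettl3 is the catalytic subunit of the enzyme that writes N6-methyladenosine on messenger RNA. The sources used here do not give the driver of the deletion, the strain or the age of the mice. They do not say whether replicates are separate mice or cultures either, so each p-value sets a difference against a spread between libraries that may be technical. The protocol describes peeled tracheal epithelium dissociated to single cells and put into the gel at once, and names no sort for basal cells. The other 4 libraries of the series, from immunoprecipitation of methylated RNA and its input, were not analysed here.

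Glycolysis splits glucose into pyruvate, and lactate dehydrogenase turns pyruvate into lactate, which leaves the cell through monocarboxylate transporters. When oxygen is short, the HIF alpha subunits escape hydroxylation by the EGLN enzymes and destruction through VHL, pair with ARNT, and raise the transcription of most glycolytic enzymes, of the kinases that keep pyruvate out of mitochondria and of genes for blood vessel growth, mitophagy and collagen folding. Airway basal cells divide and give rise to the club and ciliated cells of the surface.

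HIF binds the letters ACGTG or GCGTG on either strand of DNA. The promoters of 4 members are shown because their genes had the lowest p-values of the set (Slc16a3, Pdk1 and Ddit4) or the most such letters (Ldha, by matches and by separate stretches). Pdk1 has another start in the table, without the letters. Each promoter runs 5′ to 3′ on the gene's strand from 250 bases before to 50 bases after the start in the RefSeq table of build GRCm38.p6, and capitals mark the letters searched. Slc16a3 lies at chr11:120948817-120949116 (plus strand), Pdk1 at chr2:71872974-71873273 (plus strand), Ddit4 at chr10:59951721-59952020 (minus strand) and Ldha at chr7:46845554-46845853 (plus strand).
Slc16a3: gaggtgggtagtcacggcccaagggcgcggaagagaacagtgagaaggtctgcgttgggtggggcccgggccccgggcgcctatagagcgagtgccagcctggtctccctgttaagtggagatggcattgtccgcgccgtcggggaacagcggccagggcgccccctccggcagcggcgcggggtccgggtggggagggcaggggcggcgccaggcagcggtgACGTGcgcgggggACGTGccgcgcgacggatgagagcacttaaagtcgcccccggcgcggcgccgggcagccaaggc
Pdk1: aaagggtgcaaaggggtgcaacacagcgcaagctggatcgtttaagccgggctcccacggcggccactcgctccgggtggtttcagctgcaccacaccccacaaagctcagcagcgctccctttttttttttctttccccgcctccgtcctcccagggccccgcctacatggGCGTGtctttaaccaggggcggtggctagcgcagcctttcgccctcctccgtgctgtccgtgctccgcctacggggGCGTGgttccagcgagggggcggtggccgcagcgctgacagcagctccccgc
Ddit4: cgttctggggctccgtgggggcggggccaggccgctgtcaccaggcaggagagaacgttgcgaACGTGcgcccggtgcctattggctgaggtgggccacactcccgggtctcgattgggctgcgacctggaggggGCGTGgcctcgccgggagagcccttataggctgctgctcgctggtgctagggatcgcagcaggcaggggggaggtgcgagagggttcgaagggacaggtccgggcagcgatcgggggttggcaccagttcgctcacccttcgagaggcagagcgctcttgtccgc
Ldha: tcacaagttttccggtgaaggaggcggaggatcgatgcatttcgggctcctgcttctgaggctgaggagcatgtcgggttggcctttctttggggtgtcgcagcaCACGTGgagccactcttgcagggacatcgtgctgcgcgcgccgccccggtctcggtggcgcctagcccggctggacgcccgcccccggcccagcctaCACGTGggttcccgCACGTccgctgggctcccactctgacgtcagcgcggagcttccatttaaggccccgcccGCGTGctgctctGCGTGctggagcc
In Slc16a3, the letters ACGTG occur 27 and again 14 bases before the start. In Ldha there are 5 separate stretches, and 2 of them hold CACGTG, which is also the E-box that MYC and its relatives bind and which counts as ACGTG on both strands. Promoters were matched for 36 of the 40 members with 53 start sites, and 43 of these starts (81.1%) held the letters, against 43.8% of the 32851 starts in the table. At least 2 separate stretches were present in 54.7% of the members' starts and in 17.2% of all starts. Genes known to respond to HIF were put on this list, so the higher share is not a result of these data. Its cause was not tested. A match is not a binding site, and the counts below measure no binding.

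Total counts ran from 8906375 to 10485922 per library. Levels are given as CPM, the counts of a gene relative to the scaled library size, in the order of replicates 1 to 3. For Mettl3, the targeted gene, the 3 Ctrl libraries had 15, 17.0 and 18.9 CPM and the 3 M3-CKO libraries 11.1, 10.3 and 9.87 CPM. Its groups did not overlap, and the log2 fold change of -0.70 (SE 0.21) was not called by edgeR (adjusted p = 0.12) and was called by DESeq2 (adjusted p = 0.049). Which exons were deleted is not stated, so this level is no measure of how complete the deletion was. M3-CKO replicate 3 stood apart. Its correlation across genes with M3-CKO replicates 1 and 2 was 0.908 to 0.919, no higher than the 0.919 to 0.925 it had with Ctrl libraries. Values without it are therefore given for the named pathway genes whose call they change and for some others. Sizes also moved elsewhere, with log2 fold changes going from 0.36 to 0.18 for Hif1a and from 1.02 to 0.83 for Cited2. Without this library, edgeR called 25.0% of all tested genes. The summed level of 11 basal cell markers was 3125 to 3828 CPM in Ctrl and 1700, 1658 and 2593 CPM in M3-CKO. Of these markers 3 fell (Krt5, Krt14 and Krt15) and 0 rose, while Itga6 was higher than Ctrl in M3-CKO replicates 1 and 2 (657 and 704 CPM against 368 to 429) and lower in replicate 3 (275 CPM). The sum of 9 hillock and squamous markers was 651 to 783 CPM in Ctrl and 251, 225 and 306 CPM in M3-CKO. The sum of 7 club and secretory markers was 5199 to 7017 CPM in Ctrl and 2868, 2157 and 6009 CPM in M3-CKO, and is made up mainly of Cyp2f2 and Ltf. Within that list Ltf fell and Scgb1a1, the defining club cell marker, rose, from 5.57, 4.33 and 2.81 CPM in Ctrl to 83.2, 37.5 and 358.5 CPM in M3-CKO (log2 fold change 5.23, SE 0.89, adjusted p = 0.033, and 3.83 without replicate 3). Endothelial markers with a row (3 of 7) stayed between 0.225 and 1.14 CPM in sum, and mesenchymal markers with a row (4 of 9) between 2.05 and 12.9 CPM. In bulk RNA, fewer cells of a type and less RNA per cell cannot be told apart.

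**Figure D1:**
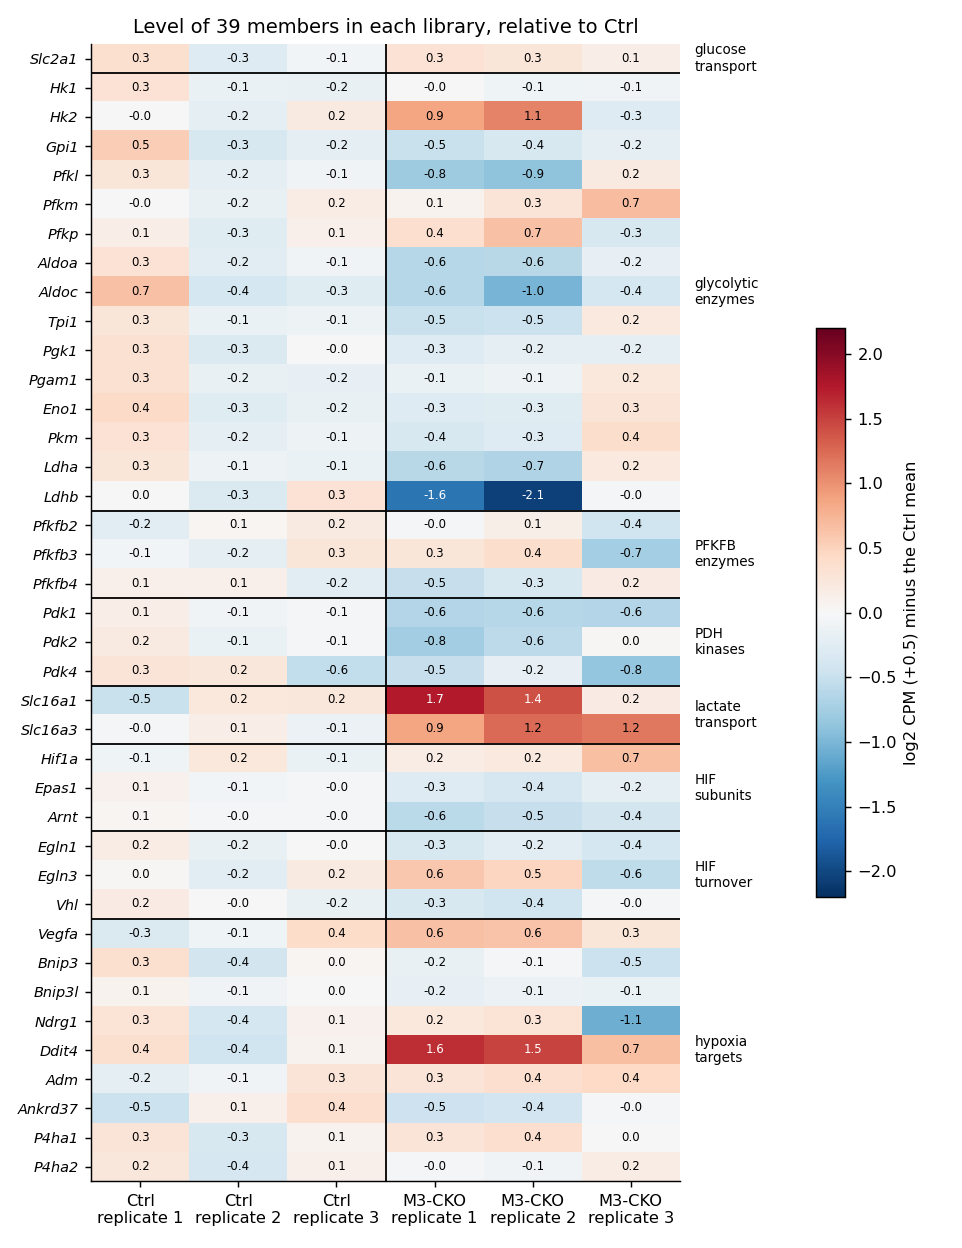
Colour and number give the log2 CPM (with 0.5 added) of each of the 39 tested members in each of the 6 libraries, minus the mean of the 3 Ctrl libraries, with genes grouped by role. Slc16a3, Pdk1 and Arnt are among the 9 members whose groups did not overlap. For Ldhb, Slc16a1 and Hk2, M3-CKO replicates 1 and 2 stand far from Ctrl and replicate 3 does not.

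The design sets knockout organoids against control organoids, and so asks which of these RNAs had another level in the knockout. With edgeR's quasi-likelihood test adjusted over all genes, 1 of the 39 tested members was called and 38 were not, a share of 2.56% against a background of 2.91% of all tested genes. The call was in the higher direction, in which 1.74% of all genes were called, and 0 members were called lower, against 1.16% of all genes. An unadjusted p under 0.05 was reached by 6 members, 15.4% against a background of 20.5%. The groups did not overlap for 9 members, 3 higher and 6 lower in M3-CKO, which is 23.1% against 27.1% of all genes (13.7% higher and 13.5% lower). The median log2 fold change of the members was -0.11, beside 0.02 for all tested genes. Counted in either direction, none of these shares of members was above its background. The shares of all genes called by edgeR (2.91%), at an unadjusted p under 0.05 (20.5%) and called by DESeq2 (10.4%) are the background for the counts by role and by list that follow.

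Lactate transport was the role in which both members stood higher. Slc16a3 encodes MCT4, the low-affinity carrier through which glycolytic cells export lactate. It had 27.3, 30.8 and 25.4 CPM in Ctrl and 51.0, 66.6 and 62.7 CPM in M3-CKO. Every M3-CKO library lay above every Ctrl library, and the 3 M3-CKO libraries, replicate 3 included, stayed together. The rise was 1.11 on the log2 scale (SE 0.17, n = 3 per group, edgeR adjusted p = 0.029), and 1.07 without M3-CKO replicate 3 (adjusted p = 0.0035). The call was lost without Ctrl replicate 1, 2 or 3 (adjusted p = 0.11, 0.12 and 0.16) and without M3-CKO replicate 1 or 2 (0.11 and 0.097), with log2 fold changes from 1.04 to 1.22. In the RefSeq annotation Slc16a3 overlaps Csnk1d, whose level was the other way round, 287 to 296 CPM in Ctrl and 234 to 244 in M3-CKO. No strand setting of the counting is given, so shared reads cannot be told apart. The summed basal markers were lower in every M3-CKO library than in every Ctrl library (1658 to 2593 CPM against 3125 to 3828). So were the summed hillock and squamous markers (225 to 306 CPM against 651 to 783). Of the club and secretory markers, Scgb1a1 was higher and Ltf lower in every M3-CKO library. The sum of that list overlapped between the groups (2157 to 6009 CPM in M3-CKO against 5199 to 7017 in Ctrl). The part of these markers in the Slc16a3 result was not tested.

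Slc16a1 encodes MCT1, which carries lactate and pyruvate in either direction. It had 13.9, 23.2 and 23.5 CPM in Ctrl and 66.9, 52.7 and 22.3 CPM in M3-CKO. Replicates 1 and 2 of the latter were above every Ctrl library, and replicate 3 lay within the Ctrl range. The log2 fold change of 1.23 (SE 0.41) was not called (adjusted p = 0.15) and was 1.57 without replicate 3 (adjusted p = 0.0031). DESeq2 called it with all libraries (adjusted p = 0.041). The log2 ratio of Slc16a3 to Slc16a1 spread more widely in M3-CKO, at -0.39, 0.34 and 1.49 against 0.98, 0.41 and 0.11 in Ctrl.

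Pyruvate dehydrogenase kinases phosphorylate pyruvate dehydrogenase and so hold pyruvate back from the citric acid cycle, and all 3 had a negative log2 fold change. Pdk1, the kinase best known as a HIF target, was measured at 563, 484 and 493 CPM in Ctrl. In M3-CKO it was 330, 331 and 328 CPM. The groups did not overlap, and the 3 M3-CKO values lay closer together than those of any other member, with a coefficient of variation of 0.452%. The log2 fold change of -0.64 (SE 0.14) missed the threshold (edgeR adjusted p = 0.062), was called by DESeq2 (adjusted p = 0.00056), and was -0.64 without M3-CKO replicate 3 (adjusted p = 0.0085). Leaving out any 1 library moved it between -0.68 and -0.56. With a library other than M3-CKO replicate 3 left out, the edgeR adjusted p was 0.15 to 0.24.

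Pdk2 was measured at 22.6, 17.8 and 19.1 CPM in Ctrl and at 11.4, 13.0 and 20.0 CPM in M3-CKO, where replicate 3 again lay within the Ctrl range (log2 fold change -0.42, SE 0.27, adjusted p = 0.43, and -0.70 with adjusted p = 0.033 without replicate 3). Pdk4, a kinase induced by fasting and fatty acids, was low in all libraries, from 0.814 to 2.40 CPM.

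**Figure D2:**
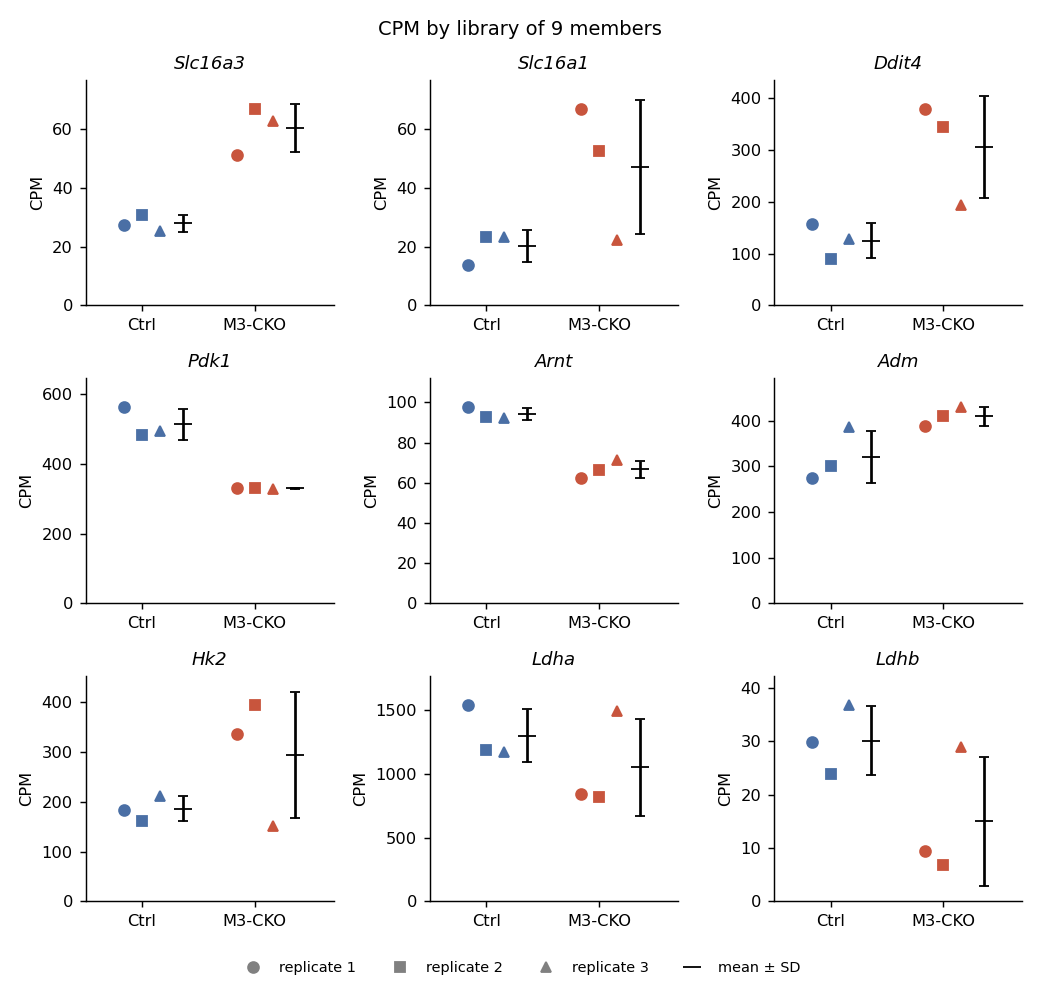
CPM of 9 members in each library, with symbols for replicates 1 to 3 and a bar for the mean ± SD of each group of 3. The groups are separate for Slc16a3, Ddit4, Pdk1, Arnt and Adm, and M3-CKO replicate 3 joins or passes the Ctrl libraries for Slc16a1, Hk2, Ldha and Ldhb.

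Among the 3 HIF subunits 0 were called by edgeR, 1 had an unadjusted p under 0.05 and 1 was called by DESeq2, in both cases Arnt. Arnt, which pairs with either alpha subunit, was measured at 97.6, 92.7 and 92.1 CPM in Ctrl and at 62.5, 66.1 and 71.3 CPM in M3-CKO. The groups did not overlap and each was tight. Its log2 fold change was -0.50 (SE 0.13, edgeR adjusted p = 0.092, DESeq2 adjusted p = 0.02), and -0.56 without M3-CKO replicate 3 (adjusted p = 0.011). With any other library left out, the edgeR adjusted p was 0.2 to 0.34. Epas1, the gene of HIF-2 alpha, had 1584, 1423 and 1435 CPM in Ctrl and 1217, 1142 and 1284 CPM in M3-CKO (log2 fold change -0.29, SE 0.16, adjusted p = 0.36). Its groups did not overlap either. Hif1a, the gene of HIF-1 alpha, had 168, 210.5 and 163 CPM in Ctrl and 202, 208.5 and 286 CPM in M3-CKO (log2 fold change 0.36, SE 0.19, adjusted p = 0.34), with overlap between the groups. HIF alpha subunits are controlled mainly through protein stability, which counts of RNA do not measure.

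The log2 ratio of Epas1 to Hif1a was 3.24, 2.76 and 3.14 in Ctrl and 2.59, 2.45 and 2.16 in M3-CKO. It was the 1 ratio of 12 between related members whose groups did not overlap, with a difference of means of -0.64, and -0.52 without M3-CKO replicate 3. The SDs were 0.25 and 0.22 (n = 3 each). Groups did not overlap for 27.1% of all tested genes taken singly, and no such share was computed for ratios. Separation in 1 of 12 ratios is therefore not read as a result about this pair. A ratio within a library shows that 2 genes moved unequally and does not say which of them moved.

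Of the enzymes that mark HIF alpha for destruction, Egln1 (PHD2, the main oxygen-sensing prolyl hydroxylase) was measured at 514, 404 and 455 CPM in Ctrl and at 357, 386 and 349 CPM in M3-CKO. The groups did not overlap, and the log2 fold change of -0.33 (SE 0.16) was not called (adjusted p = 0.29). Egln3 (PHD3), itself a HIF target, had 1591, 1323 and 1792 CPM in Ctrl and 2340.0, 2177 and 1058 CPM in M3-CKO. Replicates 1 and 2 were above all Ctrl libraries and replicate 3 was below all of them, so the log2 fold change of 0.24 (SE 0.31, adjusted p = 0.71) averages values on both sides of Ctrl. Without replicate 3 it was 0.52 (adjusted p = 0.044). Vhl, the substrate receptor of the ligase that destroys hydroxylated HIF alpha, had 82.2 to 105 CPM in Ctrl and 68.0 to 90.3 CPM in M3-CKO (log2 fold change -0.27, adjusted p = 0.42).

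Among the 9 hypoxia targets 0 were called by edgeR, 1 had an unadjusted p under 0.05 and 1 was called by DESeq2, in both cases Ddit4. Ddit4 (REDD1), a stress-induced inhibitor of the growth kinase mTORC1, was measured at 157, 89.4 and 129 CPM in Ctrl and at 379, 344 and 194 CPM in M3-CKO. The groups did not overlap, and replicate 3 was the lowest M3-CKO library. The log2 fold change was 1.29 (SE 0.30), a fold of 2.44, with an edgeR adjusted p of 0.067, a DESeq2 adjusted p of 0.0021 and an edgeR adjusted p of 0.021 when no filter on low counts was used. Without M3-CKO replicate 3 it was 1.53 (adjusted p = 0.0022). With any other library left out, the edgeR adjusted p was 0.14 to 0.23.

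Adm, the gene of the vasodilator peptide adrenomedullin, was measured at 275, 302 and 385 CPM in Ctrl and at 389.5, 409.5 and 430 CPM in M3-CKO. The groups were separated by a narrow gap, and the log2 fold change of 0.35 (SE 0.17) was not called (adjusted p = 0.30). Vegfa, the main growth factor for blood vessels, had 921, 1064 and 1518 CPM in Ctrl and 1781, 1761 and 1380 CPM in M3-CKO. Replicate 3 was below the highest Ctrl library, and the log2 fold change was 0.49 (SE 0.23, adjusted p = 0.29).

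The mitophagy receptor genes Bnip3 and Bnip3l had log2 fold changes of -0.25 and -0.15 (adjusted p = 0.58 and 0.59). Bnip3l lay between 428 and 475 CPM in Ctrl and between 400 and 413 in M3-CKO, without overlap. A copy of it, Bnip3l-ps, has its own row at 19.7 to 32.9 CPM, so reads may have been shared. Ndrg1, a growth-restraining gene that is a common marker of hypoxia, had 1361, 850 and 1179 CPM in Ctrl and 1299, 1362 and 526 CPM in M3-CKO. Its replicate 3 value was the lowest of all 6 libraries, and the log2 fold change went from -0.09 (adjusted p = 0.92) to 0.23 without replicate 3 (adjusted p = 0.42).

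P4ha1 and P4ha2, which encode the catalytic subunits of collagen prolyl 4-hydroxylase, had log2 fold changes of 0.21 and 0.0019 (adjusted p = 0.61 and 1.00). Ankrd37, a small ankyrin repeat gene used as a HIF-1 marker, had 19.7 to 35.6 CPM in Ctrl and 19.9 to 26.9 CPM in M3-CKO (log2 fold change -0.34, adjusted p = 0.52). For these 3 genes the groups overlapped.

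**Figure D3:**
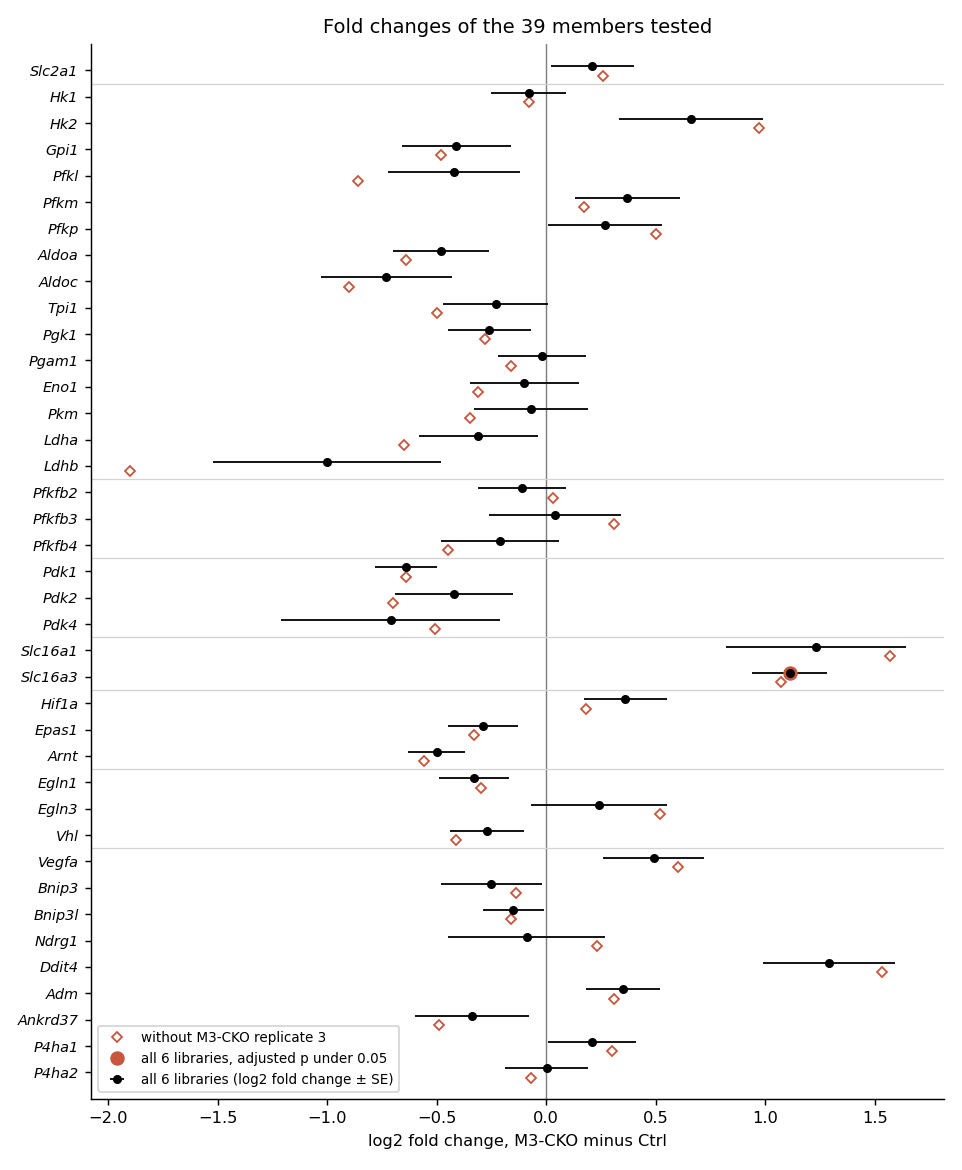
Log2 fold change of M3-CKO against Ctrl for the 39 tested members. Black points with bars are the estimate ± SE from all 6 libraries, the ringed red point is the 1 called gene, Slc16a3, and open diamonds are the estimate without M3-CKO replicate 3, which moved Ldhb from -1.0 to -1.90 and left Pdk1 at -0.64.

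Of the 15 glycolytic enzymes from hexokinase to lactate dehydrogenase, 0 were called by edgeR, 1 had an unadjusted p under 0.05 (Aldoc, lower, a share of 6.67% against the 20.5% of all genes) and 0 were called by DESeq2. The median log2 fold change was -0.23, with 12 negative and 3 positive. Pkm, the pyruvate kinase of most tissues and the last step to pyruvate, had 2340, 1640 and 1754 CPM in Ctrl and 1469, 1548 and 2452 CPM in M3-CKO. Replicates 1 and 2 were below all Ctrl libraries and replicate 3 was above all of them, so the log2 fold change was -0.07 (SE 0.26, adjusted p = 0.91) with all libraries and -0.35 (adjusted p = 0.19) without replicate 3.

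Ldha, the lactate dehydrogenase subunit that favours making lactate, had 1536, 1186 and 1166 CPM in Ctrl and 844, 814 and 1488 CPM in M3-CKO. Its log2 fold change was -0.31 (SE 0.27, adjusted p = 0.58), and -0.65 without replicate 3 (adjusted p = 0.021). Ldhb, the subunit that favours using lactate, had 29.8, 23.8 and 36.8 CPM in Ctrl and 9.37, 6.73 and 28.9 CPM in M3-CKO. In M3-CKO replicates 1 and 2 it was far below Ctrl, and in replicate 3 it was within the Ctrl range. The log2 fold change was -1.0 (SE 0.52, adjusted p = 0.33), and -1.90 without replicate 3 (adjusted p = 0.002). The log2 ratio of Ldha to Ldhb was 4.98 to 5.69 in Ctrl, 6.49 and 6.92 in M3-CKO replicates 1 and 2, and 5.69 in replicate 3.

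M3-CKO libraries also split for the main aldolase, with replicates 1 and 2 below every Ctrl library and replicate 3 within the Ctrl range. Aldoa had 1481, 1001 and 1123 CPM in Ctrl and 770.0, 778 and 1045 CPM in M3-CKO (log2 fold change -0.48, SE 0.22, adjusted p = 0.27, and -0.64 with adjusted p = 0.034 without replicate 3). Aldoc, the brain-type aldolase, had 278, 136.5 and 147 CPM in Ctrl and 114, 87.4 and 136.2 CPM in M3-CKO (log2 fold change -0.73, SE 0.30, adjusted p = 0.23). Its groups nearly met, at 136.5 and 136.2 CPM, and without Ctrl replicate 1 the log2 fold change was -0.33 (adjusted p = 0.50).

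Tpi1, which interconverts the triose phosphates, had a log2 fold change of -0.23 (adjusted p = 0.66), Pgk1 and Pgam1, which carry the phosphoglycerate steps, -0.26 and -0.02 (adjusted p = 0.50 and 0.97), and Eno1, the enolase, -0.10 (adjusted p = 0.87). Gpi1, the glucose phosphate isomerase, had -0.41 (adjusted p = 0.41). Of these 5 genes, Tpi1, Eno1 and Gpi1 were below every Ctrl library in M3-CKO replicates 1 and 2 and inside the Ctrl range in replicate 3. Without replicate 3 their log2 fold changes were -0.50, -0.31 and -0.48 (adjusted p = 0.051, 0.29 and 0.19). Pgk1 and Pgam1 showed no such split, with M3-CKO replicates 1 and 2 overlapping Ctrl. Many glycolytic genes have processed copies in the genome, and Eno1b and Aldoart1 have rows of their own here at 12.5 to 18.8 and 0.61 to 2.18 CPM, so reads of Eno1 and Aldoa may have been shared with them.

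Over the 15 enzymes, M3-CKO replicate 3 was above both other M3-CKO libraries in 12 and below both in 2, where 45.4% and 44.0% of all genes were. The median of its difference from the mean of the other 2 was 0.45 (log2). M3-CKO replicates 1 and 2 were both below every Ctrl library in 9 and both above in 2, where 28.8% and 28.0% of all genes were. Ctrl replicate 1 was the highest Ctrl library in 12, where 40.4% of all genes were. The summed level of the 15 enzymes was 9204, 6419 and 6861 CPM in Ctrl and 5646, 5792 and 8098 CPM in M3-CKO. Each group thus held 1 library well above its partners. In M3-CKO that library, replicate 3, also had the highest sum of club and secretory markers (6009 CPM against 2868 and 2157), of basal markers (2593 against 1700 and 1658), of multiciliated markers (799.7 against 567 and 534) and of hillock and squamous markers (306 against 251 and 225). The most abundant gene of the basal list was Aqp3, with 175, 163 and 1127 CPM in M3-CKO. That of the multiciliated list was Tubb4b (470, 463 and 750 CPM), and that of the hillock and squamous list was Krt4 (136, 109 and 213 CPM). The order of the sums in each of these lists rests on that 1 gene. With it left out, replicate 3 would have the lowest sum of the M3-CKO libraries and not the highest. Other genes of these lists went either way, with Krt5 highest in replicate 3 and Itga6, Foxj1 and Krt6a lowest. The part of these markers in the split was not tested. In Ctrl that library, replicate 1, had the lowest sum of club and secretory markers (5199 CPM) and of multiciliated markers (513.5 CPM). Its sums of basal markers (3721 CPM) and of hillock and squamous markers (754 CPM) lay between those of the other Ctrl libraries.

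At the steps that commit glucose to the pathway, no gene was called by edgeR with all 6 libraries. For Hk2 and Pfkp, M3-CKO replicates 1 and 2 were above every Ctrl library, and for Pfkl they were below every one. Replicate 3 did not follow them. Hk2, the inducible hexokinase that binds mitochondria, had 184, 162 and 212 CPM in Ctrl and 335, 394 and 152 CPM in M3-CKO. Replicates 1 and 2 were above every Ctrl library, and replicate 3 was below every one. The log2 fold change was 0.66 (SE 0.33, adjusted p = 0.31), and 0.97 without replicate 3 (adjusted p = 0.003). Hk1, the hexokinase found in nearly all tissues, had -0.08 (adjusted p = 0.85) and groups that overlapped.

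Phosphofructokinase has 3 subunit genes, named for liver, muscle and platelet. Pfkl, the liver type, had 169, 123 and 134 CPM in Ctrl and 80.9, 75.8 and 160.4 CPM in M3-CKO (log2 fold change -0.42, adjusted p = 0.48, and -0.86 with adjusted p = 0.0066 without replicate 3). Pfkp, the platelet type, had 123, 92.3 and 119.5 CPM in Ctrl and 143.5, 174 and 86.6 CPM in M3-CKO (log2 fold change 0.27, adjusted p = 0.62, and 0.50 with adjusted p = 0.049 without replicate 3). The log2 ratio of Pfkp to Pfkl was -0.45, -0.41 and -0.17 in Ctrl, 0.83 and 1.20 in M3-CKO replicates 1 and 2, and -0.89 in replicate 3. Replicates 1 and 2 therefore lay above the Ctrl range and replicate 3 below it. Pfkm, the muscle type, stood at 12.4 to 15.8 CPM in Ctrl and 14.7 to 22.7 CPM in M3-CKO (log2 fold change 0.37, adjusted p = 0.44).

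**Figure D4:**
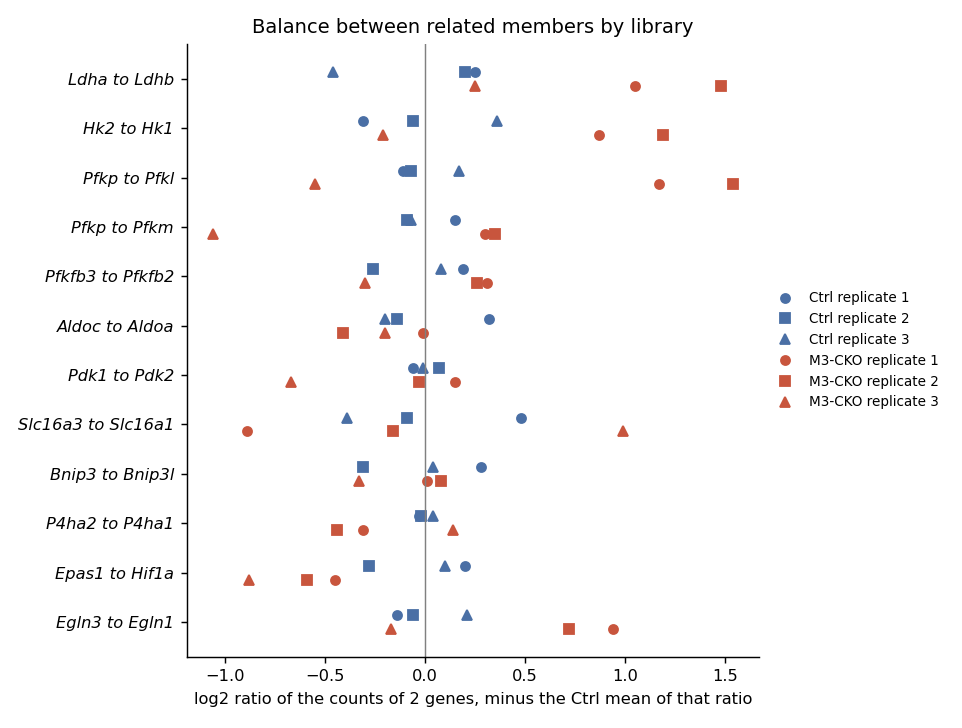
Log2 ratio of the counts of 2 related members in each library, minus the Ctrl mean of that ratio, for the 12 pairs with no library at 0. M3-CKO replicates 1 and 2 lie to the right of every Ctrl library for Ldha to Ldhb, Hk2 to Hk1, Pfkp to Pfkl and Egln3 to Egln1. The same holds, by less, for Pfkp to Pfkm and Pfkfb3 to Pfkfb2. Replicate 3 does not lie there for any of these pairs. For P4ha2 to P4ha1, replicates 1 and 2 lie to the left of every Ctrl library and replicate 3 to the right. For Epas1 to Hif1a, all 3 M3-CKO libraries lie to the left of every Ctrl library.

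The PFKFB enzymes set the level of fructose 2,6-bisphosphate, the activator of phosphofructokinase, and 0 of 3 were called by edgeR, with 0 at an unadjusted p under 0.05 and 0 called by DESeq2. Pfkfb3, the most glycolytic of them, had 200, 180.5 and 252 CPM in Ctrl and 251.5, 273 and 125 CPM in M3-CKO (log2 fold change 0.04, SE 0.30, adjusted p = 0.96, and 0.31 with adjusted p = 0.18 without replicate 3). Pfkfb2 and Pfkfb4 had log2 fold changes of -0.11 and -0.21 (adjusted p = 0.81 and 0.72). Slc2a1 (GLUT1), the basal glucose transporter, had 444, 284 and 332 CPM in Ctrl and 431, 415.5 and 384 CPM in M3-CKO (log2 fold change 0.21, SE 0.19, adjusted p = 0.59). Its groups overlapped, and Slc2a3 (GLUT3), the neuronal transporter, had 0.203 CPM in M3-CKO replicate 3 and a count of 0 in the other 5 libraries.

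Without M3-CKO replicate 3, 13 of the 39 members were called, 6 higher and 7 lower, a share of 33.3% against a background of 25.0% of all genes tested in that setting. The higher ones were Hk2, Pfkp, Slc16a1, Slc16a3, Egln3 and Ddit4, and the lower ones Pfkl, Aldoa, Ldha, Ldhb, Pdk1, Pdk2 and Arnt. These calls rest on M3-CKO replicates 1 and 2, a pair closer to each other (r = 0.985) than any Ctrl pair (at most 0.977). Whether that pair shares a mouse or culture is not stated. With DESeq2 size factors, library size alone, limma-voom, a minimum of 1 CPM in 3 libraries, and the 20 most abundant genes left out, Slc16a3 was the 1 member called each time, against backgrounds of 3.01%, 3.1%, 2.23%, 2.86% and 3.15%. With no filter on low counts, 2 members were called (Slc16a3 and Ddit4) against 3.3%. With the replicate number as a block, or with M3-CKO replicates 1 and 2 summed into 1 library, 0 members were called by edgeR against 0.148% and 0.101%, with 7 and 5 members at an unadjusted p under 0.05. Without Ctrl replicate 1, 2 or 3 or M3-CKO replicate 1 or 2, 0 members were called against 0.0%, 0.00716%, 0.0%, 0.101% and 0.129%, with 4 to 8 members at an unadjusted p under 0.05. DESeq2 on all 6 libraries called 5 members (12.8% against a background of 10.4%): Slc16a3, Slc16a1 and Ddit4 higher, Pdk1 and Arnt lower. Slc16a3, Slc16a1, Ddit4, Pdk1 and Arnt were thus called in both settings.

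Genes of the same pathways outside the 40 were read from wider lists, of which 154 distinct genes were tested. Of these 5 were called higher and 3 lower, 5.19% against the background of 2.91%, and the lists were drawn up with earlier results of these data known. The medians of the lists ran from -0.21 (citric acid cycle) to 0.23 (collagen modification) on the log2 scale, beside 0.02 for all tested genes. In glycolysis, 2 of 13 rose and 0 fell (15.4% called). Bpgm, which makes the 2,3-bisphosphoglycerate of red cells from a glycolytic intermediate, had 92.7, 77.3 and 88.8 CPM in Ctrl and 138, 139 and 179 CPM in M3-CKO (log2 fold change 0.82, SE 0.17, adjusted p = 0.048). Adpgk, a glucokinase that uses ADP, had 39.3, 43.2 and 34.9 CPM in Ctrl and 73.5, 74.5 and 75.2 CPM in M3-CKO (log2 fold change 0.93, SE 0.15, adjusted p = 0.029). For both genes every M3-CKO library, replicate 3 included, was above every Ctrl library. Another lactate carrier, Slc16a7 (MCT2), ran against Slc16a3 and Slc16a1, with 295, 331 and 359 CPM in Ctrl and 216, 223 and 198 CPM in M3-CKO (log2 fold change -0.63, SE 0.15, adjusted p = 0.068, and -0.58 with adjusted p = 0.013 without M3-CKO replicate 3). Gapdh, the usual reference gene, had 86.5 to 163 CPM in Ctrl and 92.9 to 110 CPM in M3-CKO (adjusted p = 0.64). It has many processed copies, so its count is uncertain.

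Of 6 other glucose transporters tested, 1 rose and 1 fell (33.3% called). Slc2a10 (GLUT10) had 1.53, 3.38 and 1.24 CPM in Ctrl and 11.7, 9.47 and 11.0 CPM in M3-CKO (log2 fold change 2.38, SE 0.42, adjusted p = 0.037). Slc5a1 (SGLT1), which takes up glucose with sodium at the apical side of epithelia, had 5.13, 8.35 and 6.63 CPM in Ctrl and 1.06, 1.26 and 1.22 CPM in M3-CKO (log2 fold change -2.50, SE 0.37, adjusted p = 0.027). Both separated the groups at low levels. Slc2a12 had 18.6, 10.5 and 12.6 CPM in Ctrl and 2.61, 3.65 and 7.22 CPM in M3-CKO (log2 fold change -1.62, SE 0.43, adjusted p = 0.088, and -2.16 with adjusted p = 0.004 without M3-CKO replicate 3).

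Of 38 other hypoxia targets tested, 1 rose and 2 fell, a share of 7.89% against the 2.91% of all genes. Cited2, a HIF target that competes with HIF alpha for the coactivator p300, had 310, 333 and 329.5 CPM in Ctrl and 578, 577 and 816 CPM in M3-CKO (log2 fold change 1.02, SE 0.19, adjusted p = 0.037). Gbe1, the glycogen branching enzyme, had 38.7, 30.6 and 32.3 CPM in Ctrl and 15.4, 14.4 and 17.2 CPM in M3-CKO (log2 fold change -1.11, SE 0.19, adjusted p = 0.034). Car12, a membrane carbonic anhydrase, had 159, 159 and 76.6 CPM in Ctrl and 4.06, 2.17 and 17.6 CPM in M3-CKO (log2 fold change -4.04, SE 0.73, adjusted p = 0.037, and -5.38 without M3-CKO replicate 3). For these 3 genes the groups did not overlap. Among 11 other regulators of HIF 0 were called by edgeR, 1 had an unadjusted p under 0.05 and 1 was called by DESeq2. That gene was Hif3a, whose product can antagonise HIF, with 136, 173 and 187 CPM in Ctrl and 106, 123 and 83.9 CPM in M3-CKO (log2 fold change -0.67, SE 0.20, adjusted p = 0.11, and -0.54 with adjusted p = 0.04 without M3-CKO replicate 3).

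The pathways that take up pyruvate and glucose 6-phosphate next were read in the same way. In pyruvate entry and the citric acid cycle 0 of 25 were called by edgeR, with 4 at an unadjusted p under 0.05 and 1 called by DESeq2 (Ogdh, log2 fold change 0.56, edgeR adjusted p = 0.099, and 0.44 with adjusted p = 0.025 without M3-CKO replicate 3). In the pentose phosphate pathway 0 of 8 were called, with 2 at an unadjusted p under 0.05 and the same number called by DESeq2. These were Tkt and G6pdx, the transketolase and the rate-limiting dehydrogenase, both at a log2 fold change of -0.69 (adjusted p = 0.087 and 0.11), and at -0.83 and -0.87 without M3-CKO replicate 3 (adjusted p = 0.0058 and 0.007). In glycogen metabolism 1 of 13 fell, Gbe1 (7.69% called), and the groups did not overlap for Ugp2, which makes the glucose donor for glycogen (91.3 to 130 CPM in M3-CKO, 157 to 178 in Ctrl, log2 fold change -0.69, adjusted p = 0.081, and -0.87 with adjusted p = 0.002 without M3-CKO replicate 3). In gluconeogenesis 0 of 4 were called by edgeR, with 1 at an unadjusted p under 0.05 and 0 called by DESeq2.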

How the data were processed

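Messenger RNA of 3 Ctrl and 3 M3-CKO organoid cultures was sequenced as paired reads, and the authors deposited 1 table of raw counts per gene symbol. The tools named are featureCounts, HISAT2 and Trim Galore, and the build is mm39, per the submitters' processing notes. Versions, annotation, strand setting and treatment of reads with several matches are not stated, so genes that overlap or have near copies are uncertain. No column of the table was left out.

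Computed here from the counts: filterByExpr kept 13528 of 22457 genes, and TMM factors scaled the libraries. The main test was edgeR 4.0.16's quasi-likelihood test in R 4.3.3, two-sided, with Benjamini-Hochberg adjustment over all tested genes, and genes were called at an adjusted p under 0.05. Alternatives were DESeq2 1.42.0, limma 3.58.1 (voom), other scalings and filters, a replicate block, each library left out, and M3-CKO replicates 1 and 2 summed. The fits were tested on simulated data. Fold changes are M3-CKO against Ctrl, and SD is over 3 libraries per group. SE is the size of the log2 fold change divided by the square root of the F statistic of edgeR's test. An exact permutation test of 3 against 3 cannot go below 0.1, so none was used. Total counts of 8906375 to 10485922 limit precision for genes near 1 CPM.

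The members and all wider and marker lists were chosen with earlier results of these data known. Named were all members, Mettl3, and from each wider list the called genes and the 3 with the lowest p at a mean of at least 1 CPM. Overlapping genes, near copies, Gapdh and single cell type markers were named after their values were seen.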

Additional observations from a re-analysis of the deposited data

How the results depend on the processing

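The count of all genes called by edgeR was 393 and moved to 1402 with DESeq2, 740 with no filter on low counts, 20 with the replicate block, 14 with M3-CKO replicates 1 and 2 summed, and 0 to 3483 with 1 library left out. The members called were 1, then 5, 2, 0, 0 and 0 to 13 in the same order. The wider list genes called were 8, then 22, 13, 0, 0 and 0 to 55. The highest of each range was without M3-CKO replicate 3. Without Ctrl replicate 1, 0 genes were called by edgeR, with 2378 at an unadjusted p under 0.05. The cause was not tested. Replicate numbers did not pair the libraries, since deviations of same-numbered libraries correlated at -0.1 to 0.02, so the block fit is only a description.

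Mettl3 had a log2 fold change of -0.70 in DESeq2 (called) and -0.78 to -0.62 with 1 library left out, called at -0.67 without M3-CKO replicate 3. The median of the members stayed between -0.19 and -0.06 in all settings run. Signs turned only for 8 members that were called in no setting. With 1 library left out, log2 fold changes ran from -0.17 to 0.10 for Hk1, -0.16 to 0.17 for Pgam1, -0.31 to 0.15 for Eno1, -0.35 to 0.11 for Pkm, -0.22 to 0.03 for Pfkfb2, -0.15 to 0.31 for Pfkfb3, -0.29 to 0.23 for Ndrg1 and -0.17 to 0.14 for P4ha2. With the 2 libraries summed they were 0.05 for Pgam1, 0.001 for Eno1, 0.06 for Pkm and -0.12 for Pfkfb3. Pgam1 was 0.0044 with library size alone, Pfkfb3 was -0.03 with limma-voom and -0.02 with the block, and P4ha2 was -0.0029 with no filter. The cause of these turns was not tested. With 3 libraries a group and 1 library that stands apart, a missed threshold does not show that a gene was the same in both groups.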

Other observations

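Genes that work beside 3 of the hypoxia targets were read from lists of their own. Among 15 regulators of mTORC1, the growth kinase that Ddit4 restrains, 1 was called higher and 0 lower by edgeR, a share of 6.67% against 2.91% of all tested genes. It was Ddit4l, the paralogue of Ddit4, with 7.32, 3.49 and 2.81 CPM in Ctrl and 24.0, 24.6 and 21.1 CPM in M3-CKO (log2 fold change 2.35, SE 0.37, adjusted p = 0.029). Every M3-CKO library, replicate 3 included, was above every Ctrl library. Deptor, an inhibitory partner of the kinase, had 88.4, 89.2 and 105.5 CPM in Ctrl and 43.1, 59.2 and 65.9 CPM in M3-CKO (log2 fold change -0.75, SE 0.19, adjusted p = 0.082, and -0.89 with adjusted p = 0.0077 without M3-CKO replicate 3).

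Among 9 tested genes of collagen prolyl and lysyl modification, 0 were called by edgeR, with 4 at an unadjusted p under 0.05 (44.4%, against 20.5% of all tested genes) and 3 called by DESeq2 (33.3%, against 10.4%). Plod1, a lysyl hydroxylase, had 22.9, 16.9 and 13.4 CPM in Ctrl and 38.5, 35.6 and 36.9 CPM in M3-CKO (log2 fold change 1.06, SE 0.23, adjusted p = 0.056, and 0.012 without M3-CKO replicate 3), with no overlap. P3h4 and P3h1 had log2 fold changes of 0.93 and 1.83 (adjusted p = 0.069 and 0.12), and of 0.72 and 1.08 without M3-CKO replicate 3 (adjusted p = 0.017 and 0.092). Among 15 mitophagy genes 0 were called by edgeR, with 1 at an unadjusted p under 0.05 (6.67%) and 0 called by DESeq2. The lowest p was that of Gabarapl1, with a log2 fold change of 0.44 (adjusted p = 0.23).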
